A study of Mus musculus with 8 samples.

Results

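The olfactory receptor genes Olfr600 to Olfr699 are a block of chemosensory receptor genes on mouse chromosome 7, described here in cultured macrophages. Members were all genes of this number range that had a probe set annotated with that symbol alone, and where a gene had more than 1 such probe set, the one of highest mean over all arrays was used. This gave 74 genes of 19938 tested. The range was chosen because it holds Olfr676, whose difference between genotypes had passed a threshold over all genes in the same 8 arrays, so that difference is given as a description and supports nothing. The other members were not chosen by their own values, but they belong to the same contrast, and their differences are likewise given as counts and sizes beside those of all genes.

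The study measured RNA of macrophages grown from bone marrow for 10 days in recombinant murine M-CSF (10 ng/ml), starved of serum overnight and treated with recombinant murine IL-6 (50 ng/ml) for 4 hours. Control macrophages (Ctrl, 4 arrays) came from IL6ralpha flox/flox mice, in which the gene of the IL-6 receptor alpha chain is flanked by loxP sites. IL6raKO macrophages (4 arrays) came from IL6ralpha flox/flox LysMCre tg/wt mice, in which the LysM promoter drives Cre recombinase in myeloid cells, and the control mice did not carry the Cre. All 8 arrays held IL-6-treated cells. The age of the mice is not given in the labels, and nothing there says whether each biological replicate was a separate animal, so p-values measure only the spread between these samples. Effects of Cre itself and of losing the receptor cannot be told apart. Precision is limited by the number of arrays, which hold no sequencing depth.

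Olfactory receptors are G-protein-coupled receptors that bind odorants on the cilia of olfactory sensory neurons. Each such neuron expresses a single receptor gene, and the receptor signals through the G protein subunit encoded by Gnal, the adenylyl cyclase encoded by Adcy3 and a cyclic nucleotide-gated channel. Mouse receptors fall into class I, the fish-like receptors, whose genes lie together on chromosome 7, and the larger class II. Some olfactory receptors have been described outside the nose, but the family as a whole is not known as a group of macrophage genes. Its probe sets serve here as a picture of low signal, and whether any member was transcribed in these cells was not tested.

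The cells carried a macrophage profile. The 8 macrophage markers fixed for this check (Adgre1, Csf1r, Cd68, Itgam, Mertk, Lyz2, Fcgr1 and Cd14) lay at percentile 87.6 of all genes or higher by mean log2 expression, while 8 markers of olfactory sensory neurons lay between percentiles 5.09 and 76.0. Cnga2, a channel subunit of olfactory neurons, was at the lower end (3.95 ± 0.10 in Ctrl and 3.83 ± 0.05 in IL6raKO, SD, n = 4 each), and Adcy3 was at the upper end. Omp, the olfactory marker protein, lay at percentile 39.7. Il6ra, the targeted gene, was at 8.43, 8.40, 8.40 and 8.45 in Ctrl replicates 1 to 4 and at 7.75, 8.10, 7.91 and 7.92 in IL6raKO replicates 1 to 4, lower in every IL6raKO array. The difference of Il6ra was -0.50 (SE 0.07), and at an adjusted p of 0.0607 in limma the targeted gene itself was not called over all genes. Ctrl replicate 4 stood apart on the first principal component (21.5, against -6.6 to 4.82 for the other arrays, 23.6% of the variance).

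All 74 members lie on chromosome 7 according to RefSeq (GRCm38.p6), from which names and gene order were taken. The array files name no build. By the MOR numbers among their synonyms, a nomenclature in which families 1 to 42 are class I, 68 members are class I receptors and 5 (Olfr693, Olfr695, Olfr697, Olfr698 and Olfr699, all of MOR family 283) are class II. Olfr652 carries a synonym without a family number in that form. Olfr605 carries both MOR202-22P and MOR24-5 and was counted under family 24, and so as class I. Of the 81 genes in the RefSeq table with symbols in this range, 7 are not members. For 4 of them (Olfr612, Olfr681, Olfr688 and Olfr694) the probe set names several genes, and Olfr628, Olfr664 and Olfr687 had no probe set named for them here. Of the members, 7 are also named on probe sets with several genes, in addition to their own.

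The sequence around the start of Olfr676 is shown because this gene chose the range, and the first bases of 2 near copies are shown because signals of such genes cannot be assumed to be separate. The windows are from RefSeq, build GRCm38.p6, and run from 250 bases before to 50 bases after the annotated transcript start. In 48 of the 64 members with a window, the transcript model begins at the start codon, as it does for Olfr676, so there the 250 bases precede the coding sequence and not necessarily a transcription start. Capitals mark the start codon of Olfr676 (chr7:105034950-105035249, plus strand).
Olfr676: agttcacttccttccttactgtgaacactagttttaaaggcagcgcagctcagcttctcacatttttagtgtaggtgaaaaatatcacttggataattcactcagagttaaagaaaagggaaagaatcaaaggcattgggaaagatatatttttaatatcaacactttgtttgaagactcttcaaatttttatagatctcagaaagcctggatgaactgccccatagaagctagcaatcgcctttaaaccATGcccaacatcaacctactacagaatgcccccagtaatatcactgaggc

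The most alike pair of windows belonged to Olfr671 and Olfr675, neighbours of Olfr676 in the same MOR family 32, with 276 of 300 bases matching in a global alignment. The median over 2016 pairs of members was 153 matching bases. From their start codons (chr7:104975934-104975983 and chr7:105024917-105024966, both minus strand), the first 50 coding bases of the pair differ at 1 position, which is in capitals.
Olfr671: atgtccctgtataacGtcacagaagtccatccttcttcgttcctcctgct
Olfr675: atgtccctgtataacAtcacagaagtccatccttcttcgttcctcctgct

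The closest windows to that of Olfr676 were those of Olfr692 (189 matching bases), Olfr605 (188) and Olfr609 (188), which belong to other MOR families. No member with a window thus came as near to Olfr676 as Olfr671 and Olfr675 came to each other, but Olfr670, Olfr672 and Olfr677, of the same MOR family, had no window to compare.

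The members gave low signal. Their mean log2 expression over the 8 arrays had a median of 5.17 and ran from 3.20 to 6.82, where the median over all genes was 6.43. Of the 74 members, 42 lay under the 25th percentile of all genes (5.37), 72 lay under the median, and only Olfr632 and Olfr646 lay above it. These are signals of different probe sets, which depend on the probes as well as on the RNA, so their order is not an order of transcript levels. The files used here give no call of presence or absence, and whether any member was transcribed in these cells was not tested.

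At the upper end stood Olfr632, whose log2 expression was 6.89, 6.76, 7.03 and 6.63 in Ctrl replicates 1 to 4 and 6.82, 6.71, 6.78 and 6.92 in IL6raKO replicates 1 to 4. It is the member of highest signal, at percentile 57.8 of all genes, and its genotypes overlapped. Olfr646 (6.56 ± 0.07 in Ctrl and 6.49 ± 0.16 in IL6raKO, SD, n = 4 each), Olfr678 (6.40 ± 0.09 and 6.34 ± 0.11) and Olfr692 (6.27 ± 0.31 and 6.27 ± 0.18) followed. At the lower end, Olfr631 was at 3.26 ± 0.21 in Ctrl and 3.15 ± 0.12 in IL6raKO (SD, n = 4 each). Olfr624 (3.33 ± 0.28 and 3.13 ± 0.09), Olfr615 (3.81 ± 0.11 and 3.82 ± 0.20) and Olfr613 (3.94 ± 0.14 and 3.76 ± 0.10) were next. In each of these 8 genes the values of the genotypes overlapped.

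Other chemoreceptor families gave similarly low signal. The median was 4.60 for 953 other Olfr genes, 3.90 for 118 vomeronasal receptors of the Vmn1r family, 3.82 for 49 of the Vmn2r family and 4.26 for 34 bitter taste receptors of the Tas2r family. As a further background, 7405 genes outside the Olfr family with a mean between 3.97 and 6.26, the 5th and 95th percentiles of the members, are called genes of like signal below.

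Olfr676 (probe set 10555903, Entrez gene 259099) was at 5.46, 5.56, 5.51 and 5.42 in Ctrl replicates 1 to 4 and at 5.03, 4.94, 5.05 and 5.11 in IL6raKO replicates 1 to 4. All 4 IL6raKO values lay below all 4 Ctrl values, with a gap of 0.30 between the lowest Ctrl and the highest IL6raKO array. The log2 difference, IL6raKO minus Ctrl, was -0.45 (SE 0.06, 95% confidence interval -0.59 to -0.32), which puts IL6raKO at 73.0% of the control signal. This is the value that chose the range, with an adjusted p of 0.0475 in limma over all genes, just inside the threshold of 0.05. The nearest member outside it was Olfr622, with an adjusted p of 0.448 in limma. Olfr676 was thus the 1 member called of 74, where 0.0301% of all genes were called, and nothing is read from that count.

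The call of Olfr676 depended on the setting, while its sign did not. Over 15 alternatives the difference stayed between -0.48 and -0.41, and the limma adjusted p lay between 0.0264 and 0.27. It passed the threshold in 4 of the 15. Leaving out any 1 of the 8 arrays gave differences from -0.48 to -0.42 and no call, with adjusted p in limma from 0.0975 (without Ctrl replicate 4) to 0.207 (without Ctrl replicate 2). Quantile normalization applied a second time gave -0.41 (adjusted p = 0.124 in limma).

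**Figure D1:**
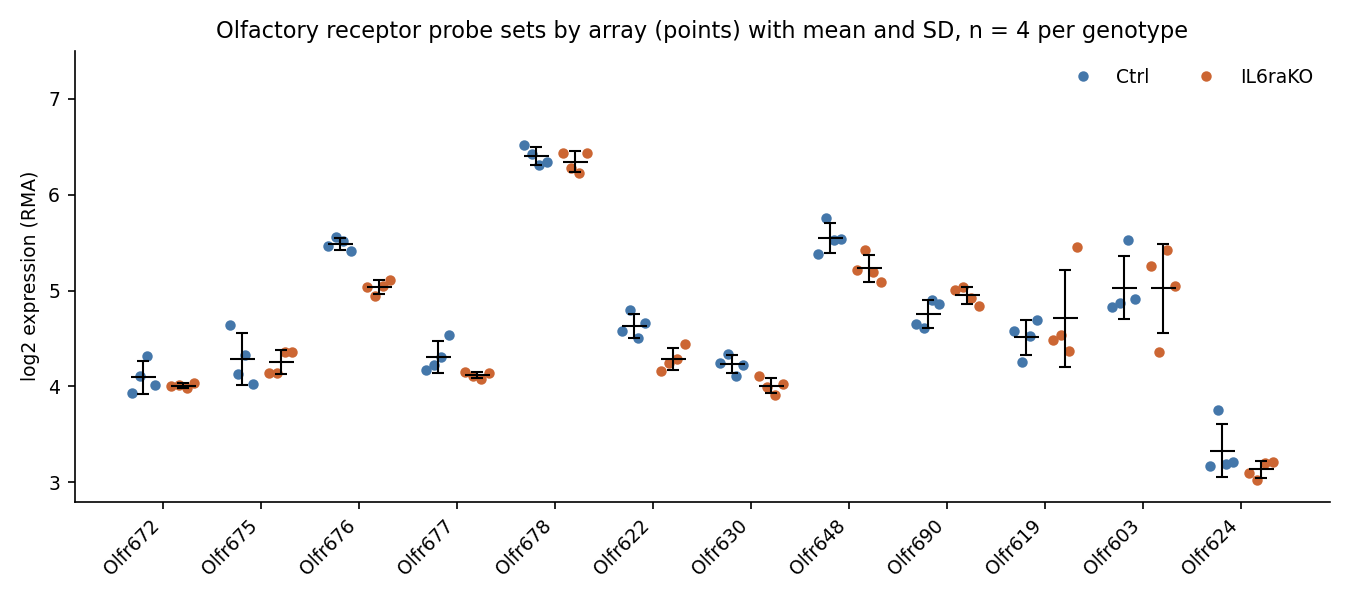
Log2 expression of 12 olfactory receptor genes on each array, with points for the 4 Ctrl (blue) and 4 IL6raKO (orange) arrays in order of replicate, and bars for the mean and SD. The Olfr676 groups are separated by 0.30, and those of the neighbouring Olfr677 and of Olfr622 and Olfr630 also do not overlap. The neighbouring Olfr672, Olfr675 and Olfr678 overlap, and single arrays stand apart in Olfr619, Olfr603 and Olfr624.

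Replicates of Olfr676 were close together compared with those of most members. Its SD within genotype, the residual SD of the fit, was 0.07 on the log2 scale and the third lowest of the 74. The median over members was 0.16, with a range from 0.06 for Olfr668 to 0.40 for Olfr603. It was 0.15 for other Olfr genes, 0.13 for genes of like signal and 0.11 for all genes. Members above their own median signal had a median SD of 0.15 and those below it 0.16. The range over all 8 arrays had a median of 0.50 among members, and Olfr676 itself spanned 0.62.

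The members with the largest spread showed single arrays far from the rest. Olfr603 (MOR family 32) was at 4.82, 4.87, 5.52 and 4.91 in Ctrl replicates 1 to 4 and at 5.26, 4.36, 5.42 and 5.05 in IL6raKO replicates 1 to 4, a difference of -0.01 (SE 0.21). Ctrl replicate 3 of Olfr603 stood high and IL6raKO replicate 2 low, and the groups overlapped widely. Olfr619 (MOR family 31) was at 4.58, 4.26, 4.52 and 4.69 in Ctrl and at 4.48, 4.53, 4.36 and 5.46 in IL6raKO. Only IL6raKO replicate 4 was high, and it gave Olfr619 the largest positive difference of all members, 0.20 (SE 0.20). Without IL6raKO replicate 4 the difference of Olfr619 was -0.05. Olfr618 (residual SD 0.33) and Olfr605 (0.32) were the next most variable.

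**Figure D2:**
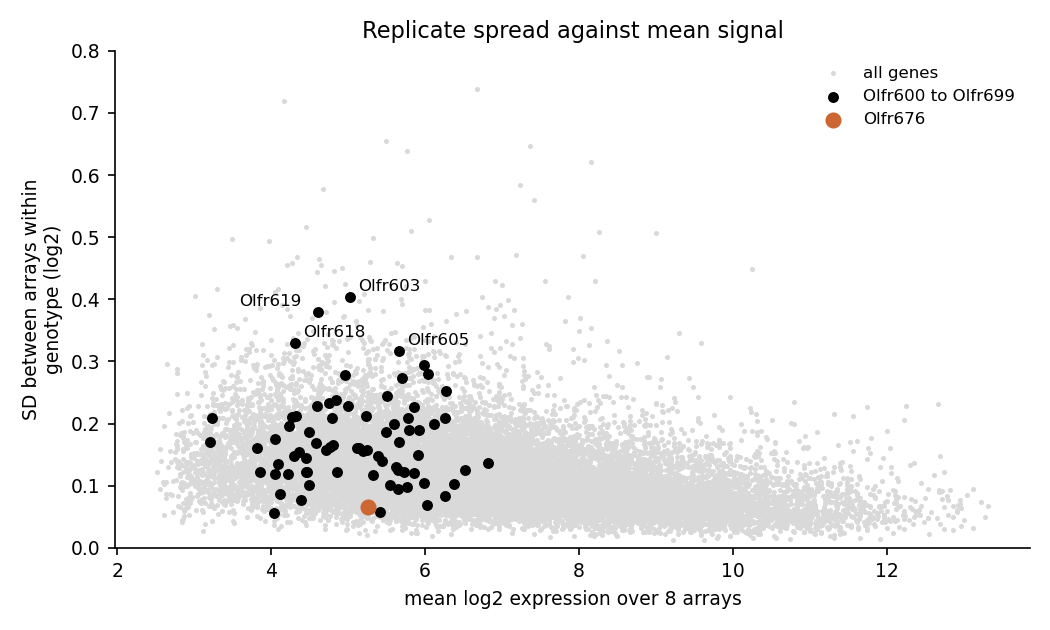
Residual SD between arrays of a genotype (log2, vertical axis) against mean log2 expression over 8 arrays (horizontal axis), for all 19938 genes (grey), the 74 members (black) and Olfr676 (orange). Members lie at the dim end, Olfr603 has the largest SD among them (0.40), and Olfr676 lies near the bottom (0.07).

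Among the 74 members, 57 were lower in IL6raKO and 17 higher, with a median difference of -0.06 on the log2 scale, beside a median of -0.01 and 54.2% lower over all genes. The differences ran from -0.45 to 0.20. In 60 of the 74 the difference was smaller than the member's own SD within genotype, and in 65 the 95% confidence interval included 0. At an unadjusted p under 0.05 in limma, 8 members (10.8%) were lower and 1 (1.35%) was higher, where 4.54% of all genes were lower and 2.74% were higher. The 8 include Olfr676, which chose the range. Apart from Olfr676, 0 of the members passed over all genes.

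Under the scaling as deposited, other dim genes leaned to lower values as well. The share lower was 66.0% for other Olfr genes (median -0.05), 72.9% for Vmn1r genes (-0.05), 67.3% for Vmn2r genes (-0.07), 73.5% for Tas2r genes (-0.06) and 65.7% for genes of like signal (-0.04). The unadjusted share lower was 8.5% among other Olfr genes and 6.41% among genes of like signal, and the share higher was 1.68% and 1.61%. Whether the 74 members differ from these groups was not tested. The scaling of the arrays moved the counts. With a second quantile normalization 46 of the 74 members were lower, the median was -0.025 and the unadjusted split was 6 lower and 1 higher. In that setting the share lower was 53.0% for other Olfr genes (median -0.008) and 50.1% for genes of like signal (-0.0005), so the lean of these 2 groups nearly vanished. It was 63.3% for Vmn2r genes (-0.036), 58.8% for Tas2r genes (-0.015) and 55.9% for Vmn1r genes (-0.016), beside 62.2% for the members. With arrays centred on their 75th percentile 64 members were lower, the median was -0.09 and the split was 12 lower and 0 higher. There 72.9% of other Olfr genes and 75.3% of genes of like signal were lower. Over all genes the 2 settings gave 3.36% lower and 3.32% higher, and 7.49% lower and 1.36% higher.

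**Figure D3:**
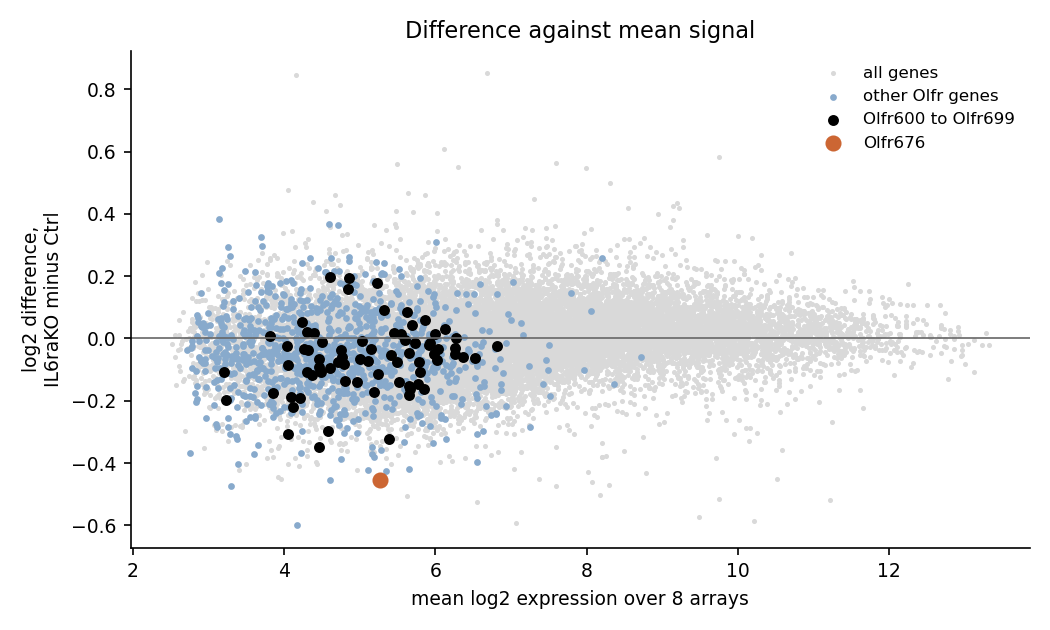
Log2 difference, IL6raKO minus Ctrl (vertical axis), against mean log2 expression over 8 arrays (horizontal axis), for all genes (grey), other Olfr genes (blue), the 74 members (black) and Olfr676 (orange). The members lie between 3.20 and 6.82 on the horizontal axis, 57 of them below 0, within the cloud of genes of like signal.

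The arrays themselves differed in their dim probe sets. The median deviation of the members from their own 8-array means was -0.01, 0.00, 0.05 and 0.08 in Ctrl replicates 1 to 4 and -0.06, -0.04, -0.08 and -0.02 in IL6raKO replicates 1 to 4. Every Ctrl value lay above every IL6raKO value, but Ctrl replicate 1 (-0.0145) and IL6raKO replicate 4 (-0.0153) were nearly equal, and the extremes were Ctrl replicate 4 and IL6raKO replicate 3. Genes of like signal had a median deviation of 0.07 in Ctrl replicate 4 and -0.04 in IL6raKO replicate 3, on the same side of 0 in both arrays. Ctrl replicate 4 held the highest of the 8 values for 17 members, and IL6raKO replicate 3 the lowest for 18. Without Ctrl replicate 4 the median difference of the members was -0.05 with 51 lower, and that of genes of like signal shrank from -0.04 to -0.02 with 58.4% lower. The median was then -0.03 for Vmn2r genes (57.1% lower), -0.04 for other Olfr genes (61.6%), -0.05 for Vmn1r genes (66.9%) and -0.05 for Tas2r genes (67.6%), beside 68.9% of the members lower. Without IL6raKO replicate 3 the members' median was -0.06 with 52 lower.

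**Figure D4:**
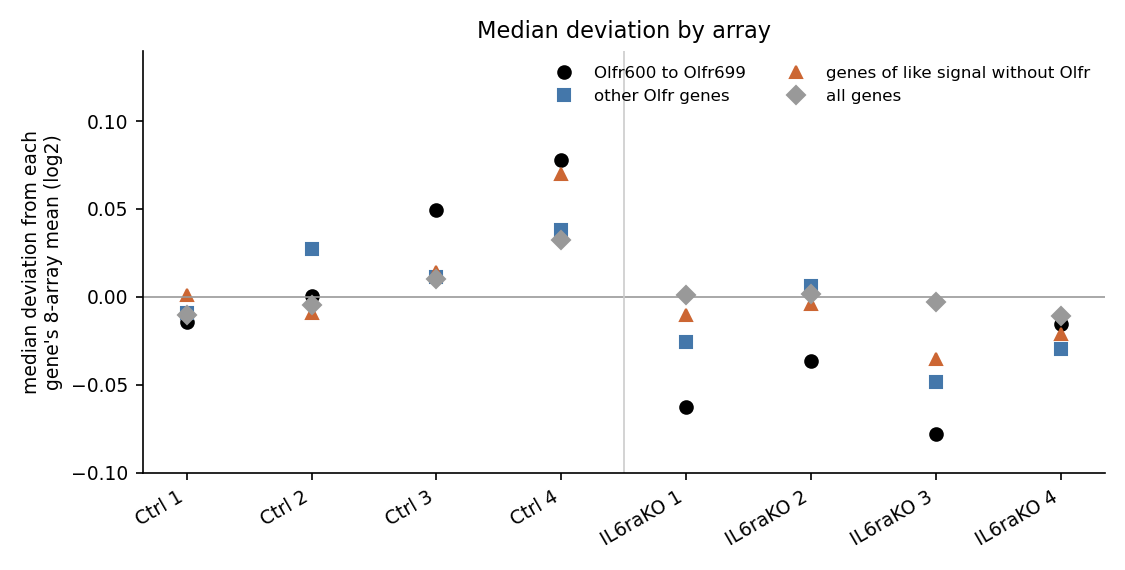
Median deviation from each gene's mean over 8 arrays (log2), by array, for the 74 members (black circles), other Olfr genes (blue squares), genes of like signal (orange triangles) and all genes (grey diamonds). Members and genes of like signal are both highest in Ctrl replicate 4 (0.08 and 0.07) and lowest in IL6raKO replicate 3 (-0.08 and -0.04).

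Markers of other cell types are given beside these differences. Of them 0 passed over all genes, where 0.0301% of all genes did, so nothing is read from that count. At an unadjusted p under 0.05 in limma, 4.54% of all genes were lower and 2.74% higher. All 8 mast cell and basophil markers were lower in IL6raKO in sign (median -0.16, 0 at an unadjusted p under 0.05 in limma), where 54.2% of all genes were lower, with an array mean of 6.02 to 6.74 in Ctrl and 5.78 to 6.44 in IL6raKO. Without Ctrl replicate 4, 6 of the 8 were lower and the median was -0.05, and a second quantile normalization left all 8 lower (median -0.15). All 4 measured B cell markers were lower in sign (median -0.14, 0 at an unadjusted p under 0.05, array means 5.36 to 5.44 in Ctrl and 5.20 to 5.30 in IL6raKO). The B cell markers are dim, with a median percentile of 27.4, and 65.7% of genes of like signal were lower. All 4 stayed lower without Ctrl replicate 4 and after a second quantile normalization (median -0.10 in each). In those settings 58.4% and 50.1% of genes of like signal were lower. Of 8 neutrophil markers, 5 were lower in sign (median -0.02), beside 54.2% of all genes. Of the 8, 1 was lower at an unadjusted p under 0.05 in limma, beside 4.54% of all genes. Their array means were 5.81 to 6.06 in Ctrl and 5.76 to 5.92 in IL6raKO. Without Ctrl replicate 4 the neutrophil median was 0.05 with 3 lower. A second quantile normalization turned the neutrophil median to 0.02, also with 3 lower. The part of these cell types in the receptor differences was not tested. In bulk RNA, fewer cells of a type and less RNA per cell cannot be told apart.

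Besides Olfr676, 3 members had 4 IL6raKO values below all 4 Ctrl values (Olfr622, Olfr630 and Olfr677), and 0 had all 4 above. These 4 of 74 (5.41%) include Olfr676, which chose the range, and stand beside 2.37% of all genes lying below and 2.07% above without overlap. Among other Olfr genes 3.46% lay below and 0.944% above, and among genes of like signal 2.96% and 0.716%. Olfr622, a class I receptor of MOR family 26, was at 4.58, 4.79, 4.50 and 4.66 in Ctrl and at 4.17, 4.25, 4.28 and 4.45 in IL6raKO. The gap between its groups was narrow, and its difference was -0.35 (SE 0.08). Olfr630 (MOR family 17) was at 4.25, 4.34, 4.11 and 4.22 in Ctrl and at 4.10, 4.00, 3.91 and 4.03 in IL6raKO, a difference of -0.22 (SE 0.07). Ctrl replicate 3 and IL6raKO replicate 1 of Olfr630 nearly touched.

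Other members at the lower end overlapped between genotypes. Olfr648, a class I receptor of MOR family 31, was at 5.38, 5.76, 5.53 and 5.54 in Ctrl and at 5.22, 5.42, 5.19 and 5.09 in IL6raKO (difference -0.32, SE 0.09). Its IL6raKO replicate 2 lay above Ctrl replicate 1. Olfr600 (-0.31, SE 0.10) had 1 low Ctrl array, replicate 1 at 3.87, beside 4.35, 4.23 and 4.34 in the others. Olfr616 (-0.30, SE 0.10) was at 4.73 ± 0.18 in Ctrl and 4.43 ± 0.16 in IL6raKO (SD, n = 4 each), and Olfr644 (-0.18, SE 0.08) at 5.75 ± 0.16 and 5.56 ± 0.06. None of these 4 passed the threshold over all genes.

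At the upper end, Olfr690 (MOR family 31) was the 1 member higher at an unadjusted p under 0.05. It was at 4.65, 4.61, 4.90 and 4.86 in Ctrl and at 5.01, 5.03, 4.92 and 4.84 in IL6raKO (difference 0.20, SE 0.08). IL6raKO replicate 4 of Olfr690 lay below Ctrl replicates 3 and 4. Olfr698 (0.18, SE 0.12), Olfr655 (0.16, SE 0.13) and Olfr699 (0.09, SE 0.08) came next. In Olfr698 the difference came with 1 high array, IL6raKO replicate 3 at 5.75, and in Olfr655 with IL6raKO replicate 1 at 5.33, while their other IL6raKO arrays lay at or below 5.27 and 4.96. Without those arrays the differences were 0.04 for Olfr698 and 0.02 for Olfr655.

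**Figure D5:**
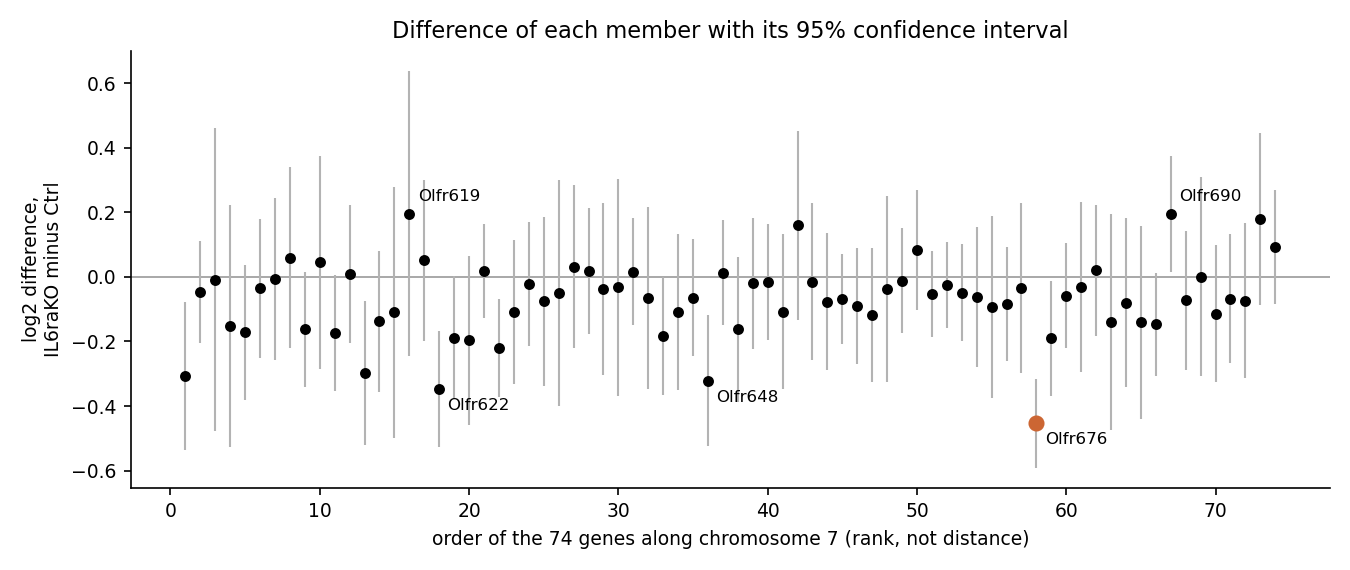
Log2 difference, IL6raKO minus Ctrl, of each of the 74 members (points) with its 95% confidence interval (bars), in gene order along chromosome 7 by rank. Olfr676 (orange) is the lowest at -0.45, its neighbours lie between -0.19 and -0.03, and 65 of the 74 intervals include 0.

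The neighbours of Olfr676 in gene order had smaller differences. The 3 members on each side (Olfr671, Olfr672 and Olfr675, then Olfr677, Olfr678 and Olfr679) were all lower in IL6raKO, by a median of -0.07 and between -0.19 and -0.03. Over all 74 members 77.0% were lower with a median of -0.06, and over genes of like signal 65.7% with -0.04. Without Ctrl replicate 4 the median of the neighbours was -0.09 with 5 of 6 lower, since Olfr679 turned to 0.04. A second quantile normalization also left 5 of 6 lower. Olfr677, the next member along the chromosome, was at 4.17, 4.22, 4.31 and 4.54 in Ctrl and at 4.15, 4.11, 4.08 and 4.14 in IL6raKO. Its groups did not overlap, but the lowest Ctrl array stood only just above the highest IL6raKO array. The difference of Olfr677 was -0.19 (SE 0.08), and without Ctrl replicate 4, its highest array, it was -0.11 (SE 0.06). Olfr678 was at 6.52, 6.43, 6.31 and 6.34 in Ctrl and at 6.43, 6.27, 6.22 and 6.44 in IL6raKO, a difference of -0.06 (SE 0.07), with overlap. Olfr672 (-0.08, SE 0.08) and Olfr679 (-0.03, SE 0.12) overlapped as well.

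Members of MOR family 32, to which Olfr676 belongs, numbered 8. The 7 others beside Olfr676, which chose the range, were all lower with a median of -0.06. Beside them, 54.2% of all genes, 77.0% of all members and 65.7% of genes of like signal were lower. A second quantile normalization left 5 of the 7 lower. Of the 7, 1 (Olfr677) was lower at an unadjusted p under 0.05, beside 4.54% of all genes. Without Ctrl replicate 4 it was 0 of 7, while all 7 stayed lower in sign with a median of -0.08. Olfr671 and Olfr675, the near copies whose first bases are printed above, were at 4.65 ± 0.09 in Ctrl and 4.55 ± 0.31 in IL6raKO, and at 4.29 ± 0.27 and 4.25 ± 0.13 (SD, n = 4 each). IL6raKO replicate 2 was the highest of 8 arrays in Olfr671 (4.97), and Ctrl replicate 1 was the highest in Olfr675 (4.64). Without Ctrl replicate 4 the differences were -0.05 (SE 0.14) for Olfr671 and -0.12 (SE 0.12) for Olfr675. The next most alike pair, Olfr661 and Olfr663 of MOR family 40 with 245 matching bases, differed by -0.12 (SE 0.10) and -0.04 (SE 0.13). Olfr663 was at -0.13 (SE 0.13) without Ctrl replicate 4.

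The medians of the other large MOR families were -0.05 for 6 members of family 13 (5 lower), -0.09 for 8 of family 31 (5 lower), -0.05 for 7 of family 34 (6 lower) and -0.08 for 7 of family 40 (6 lower). Without Ctrl replicate 4 the median of family 13 turned to 0.01 (3 lower), and those of families 31 and 34 shrank to -0.04 and -0.03. That of family 40 went further down, to -0.11 (5 lower). A second quantile normalization gave medians of -0.01 for family 13 (3 lower), -0.05 for family 31 (5 lower) and -0.01 for family 34 (4 lower). Family 40 was then at -0.04 (6 lower). Family 34 had the tightest replicates of these, with a median residual SD of 0.08, and family 13 the widest, with 0.20. The 68 class I members had a median difference of -0.06 with 53 lower, and the 5 class II members -0.07 with 3 lower, or -0.03 without Ctrl replicate 4. The median signal was 5.07 in class I and 5.24 in class II.

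Olfr617 had a second probe set. In the fit of all probe sets it differed by -0.02 between genotypes (SE 0.15) and the one used by -0.14 (SE 0.11). The SE of the one used was 0.10 in the main fit. The differences lie apart by less than the SE of the second probe set. Among the 8 probe sets that name a gene of the range together with another, 6 were lower, the median was -0.08, and differences ran from -0.39 to 0.07. The lowest, shared by Olfr620 and Olfr624, differed by -0.39 (residual SD 0.28), where the members' own probe sets differed by 0.05 for Olfr620 and -0.20 for Olfr624. Without Ctrl replicate 2, its 1 high array, the difference of Olfr624 was -0.06. The probe set shared by Olfr681 and Olfr679 differed by -0.23 (residual SD 0.13), and that of Olfr679 alone by -0.03.

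A list of genes of olfactory signalling, receptor transport and neuronal transcription factors, 26 of them measured, had a median difference of -0.03, with 17 of 26 lower beside 54.2% of all genes. At an unadjusted p under 0.05 in limma, 2 of the 26 were lower and 1 was higher, beside 4.54% and 2.74% of all genes. None passed over all genes, and a share of 0.0301% of all genes did, so nothing is read from that count. Cngb1, a subunit of the cyclic nucleotide-gated channel, was at 7.38 ± 0.09 in Ctrl and 7.20 ± 0.03 in IL6raKO (SD, n = 4 each), without overlap (difference -0.18, SE 0.06), while the mean of all its probe sets differed by -0.08. Rtp2, a chaperone that brings olfactory receptors to the cell surface, differed by -0.23 (SE 0.10), and Ncam2, an adhesion molecule of olfactory axons, by 0.22 (SE 0.09). Omp, the olfactory marker protein, differed by -0.17 (SE 0.08). Gnal differed by 0.11 (SE 0.09) and Adcy3 by -0.04 (SE 0.07), and the genotypes overlapped in both.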

How the data were processed

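Biotin-labelled cDNA of 8 macrophage samples was measured on whole-transcript Affymetrix arrays, as the labels' protocols state. The authors deposited log2 values (1.96 to 14.2) of 35556 probe sets. RMA and R 2.13.1 are named per the submitters' processing notes. Any filter and the build are not given in these sources. RMA compresses differences of dim probe sets. Of these probe sets, 21789 had a single symbol in the platform annotation, giving 19938 genes. Arrays were distinct (SD of the log2 difference of any 2 at least 0.16).

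IL6raKO minus Ctrl was fitted with limma 3.58.1 (lmFit, eBayes) in R 4.3.3 over all genes and 8 arrays, without covariate or filter, and adjusted by Benjamini-Hochberg (two-sided, threshold 0.05). The fit was tested on simulated data with genes drawn independently. That test held no shift shared by the genes of an array, so it does not cover one. Same-numbered arrays did not deviate together (correlations -0.011 to 0.041). Windows were aligned with Biopython 1.88. Members, lists and the rule for named genes were chosen with earlier results of these data known. The rule took Olfr676, 3 neighbours on each side, 5 members at each end of the difference, 4 at each end of signal, 4 of largest SD, the closest sequences, and 4 olfactory signalling genes of lowest p. It named closest proteins, for which start windows were used instead. Olfr630, Olfr644, Olfr617, Olfr668 and the shared probe sets were named after their values were seen, as were Gnal and Adcy3. List and family medians under other scalings and without Ctrl replicate 4 were added after seeing the data.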

Additional observations from a re-analysis of the deposited data

Results flagged for a closer look

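Dixon's test for a value far from the rest was run on 68 groups of 4 arrays (each named gene, and the member median, in each genotype). It picked out 3 groups. Chance alone picks about 1 in 20 groups, but genes named for a large spread or difference hold outlying arrays more readily, so that rate is no yardstick here. Olfr619 was at 5.46 in IL6raKO replicate 4 and between 4.36 and 4.53 in the other IL6raKO arrays. In Olfr624, Ctrl replicate 2 stood at 3.75, above a range of 3.17 to 3.21 in the remaining Ctrl arrays. In Olfr603, Ctrl replicate 3 stood at 5.52, above 4.82 to 4.91 in the rest. A different array was involved in each gene.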

How the results depend on the processing

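Replicate numbers are shared between the groups, but the arrays did not pair by number. With the replicate block, Olfr676 stood at -0.45 (limma adjusted p = 0.27), 0 members were called and 0 were higher at an unadjusted p under 0.05. Testing all probe sets gave -0.45 (limma adjusted p = 0.258), 0 called and 0 higher. Over all genes, the share higher was 2.72% with the replicate block and 2.07% with all probe sets tested. A second quantile normalization gave -0.41 for Olfr676 (limma adjusted p = 0.124), 0 called, a member median of -0.025 and a median residual SD of 0.15. Centring on the 75th percentile and the trended, robust variance each gave 0 higher, beside 1.36% and 3.32% of all genes. Olfr676 was not among genes above the 25th percentile (32 members left, 0 called, 2 lower and 0 higher, median SD 0.15). Of all genes kept there, 4.09% were lower at an unadjusted p under 0.05 and 3.51% higher. Above the median 2 members were left (0 called, 0 lower, 0 higher, SD 0.13), beside 3.23% of genes kept lower and 5.03% higher. Neither filter thus gave Olfr676 a value. With 1 array left out, Olfr676 ranged from -0.48 to -0.42, 0 members were called each time, members lower at an unadjusted p under 0.05 ranged from 7 to 12 and members higher from 0 to 2, the member median from -0.07 to -0.05 and the median SD from 0.15 to 0.17. The cause of these changes was not tested. Of 494 values of other named genes over the alternatives, 493 moved by less than the gene's residual SD, the exception being Cngb1 with the mean of all its probe sets (-0.08).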
